A study of Homo sapiens with 12 samples.

Results

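Long retained introns are described here, that is, introns of at least 500 bases that were kept in part of the mature transcripts of their gene in T-47D cells. They were taken from the authors' table of retained introns by 3 conditions, a length of 500 bases or more, no fewer than 20 reads on average over the spliced and the intron-containing form together, and a rarer form that held at least 5% of all reads over the 6 RNA libraries. Of 8551 retained-intron events in the table, 3246 were that long, and 1612 of these, in 1140 genes, met all 3 conditions. The other 2953 introns that passed the read filters were shorter and served as the comparison. The introns were thus chosen by length and by the reads of the 2 forms pooled over all libraries, so inclusion levels as such are given as a description, whereas the difference between treatments was not used in the choice and was tested.

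T-47D is an established luminal, oestrogen receptor positive breast cancer line, labelled wild type. Palbociclib inhibits the kinases CDK4 and CDK6, which drive the step from G1 into S phase. Cells had received 1 µM palbociclib or the solvent DMSO for 24 h, and 3 biological replicates per treatment were sequenced as poly(A) RNA and another 3 per treatment by ATAC-seq, which reads how open chromatin is. All groups were the same line, so they are 1 genetic background. The 10 luminal marker genes checked, among them ESR1, GATA3 and KRT19, lay between 41.9 and 3008 FPKM in all 6 RNA libraries, while the basal genes TP63 and VIM reached at most 0.113 and 2.18 FPKM and the blood gene CD68 at most 0.173 FPKM. The stromal gene COL1A1 lay between 23.1 and 25.97 FPKM, whereas COL3A1, also stromal, lay between 0.301 and 0.520 FPKM. No value was available for the stromal gene PDGFRB or the basal genes KRT5 and KRT14. The same held for the endothelial genes PECAM1 and VWF and the blood genes PTPRC and CD3E.

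An intron is removed by the spliceosome, in which U1 and U2 snRNPs recognise its 5′ and 3′ ends with the help of SR proteins. Retained introns keep a polyadenylated transcript either in the nucleus, where such introns are called detained, or expose it to nonsense-mediated decay once it is exported. Many genes that encode splicing factors, RNA helicases and RNA-binding proteins carry such an intron, often together with a poison exon, a cassette exon whose inclusion brings a premature stop codon.

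The intron with the most reads, in DDX5, also holds the miRNA genes MIR3064 and MIR5047. The mature sequences of miR-3064 are shown because they lie in the intron whose inclusion is reported below. They are RefSeq sequences on GRCh38.p14, minus strand, with the seed (bases 2 to 8) in capitals.
hsa-miR-3064-3p: uUGCCACAcugcaacaccuuaca
hsa-miR-3064-5p: uCUGGCUGuuguggugugcaa
The first lies at chr17:64500775-64500797 and the other at chr17:64500817-64500837. The intron spans chr17:64500774-64502009 on the same strand, so the 3′ end of miR-3064-3p lies 1 base from the 3′ end of the intron. The seeds of both arms differ. Some of the other small RNAs inside long retained introns are named with their introns.

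The introns had a median length of 1010.5 bases, with quartiles of 696.75 and 1605.25 bases and a range from 500 to 7766. There were 101 of at least 3000 bases. Most genes had a single one, as 848 of the 1140 genes did, and 22 genes had at least 5. Within their gene the introns lay towards the end: of 1566 that could be placed on a RefSeq gene, 688 (43.9%) lay past 0.75 of the gene's length and 198 (12.6%) before 0.25. Positions of the shorter introns are not set beside these, so the shares describe the long ones only. Of all 1612, 312 (19.4%) held a whole cassette exon listed in the authors' table of skipped exons, and 225 (13.96%) overlapped another annotated gene, whose reads cannot be told apart from those of the intron where the counting strand is not known. Another 167 overlapped a second long retained intron, so that they share reads.

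The inclusion level is the share of transcripts that keep the intron, computed by the authors' tool from reads per length of each form. In DMSO its median over the long introns was 6.02%, against 10.7% over the shorter ones. Of the introns 752 had a mean level under 5% in DMSO, while 129 had one of at least 50%. Among introns with at least 50 reads, the highest mean levels in DMSO were those of KMT5B (80.2% ± 17.2, SD), FAM136A (79.1% ± 10.8) and PPIG (76.1% ± 10.1). KMT5B had 77 reads per library and stood at 68.9%, 71.8% and 100% in the DMSO libraries. The lowest were those of SORD (0.144%), KDM6A (0.148%) and NEDD4L (0.196%). The longest were introns of IFNAR2 (7766 bases, 2.79% in DMSO), CTSC (6740 bases, 5.69%) and KDM6A (6339 bases). The condition on the rarer form uses raw reads, whereas the inclusion level divides reads by length. Longer introns could therefore pass only at lower levels. This bears on the levels of the longest introns, and on the medians and extremes above. At the length limit, introns of PLXNB1 and PABPC4 with 500 bases were inside at 64.6% and 12.9%, and introns of SNHG6 and SNHG15 with 499 bases were outside at 77.1% and 19.5%.

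Reads from both ends of the introns were compared to see whether whole introns were covered. The ratio of 5′ to 3′ exon-intron junction reads had a median of 0.97, and in 1442 introns (89.5%) the 2 ends were within 4-fold of each other. Introns reported below as changed but outside that range were those of RBM39 (ratio 0.174) and TMSB4X (0.0421) and the falling intron of NPEPPS (4.05). For these, even coverage from end to end is not shown. Per base, the intron body held 0.595 of the reads seen at the junctions, at the median. The body gave 72.6% of the inclusion reads of a long intron, against 14.5% of those of a shorter one. A cassette exon inside the intron adds to the body reads and not to the junction reads, so the kinds of read are also given separately below. Inclusion of the exon also takes transcripts out of the spliced reads, against which all kinds of read are set.

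Depth on the 1612 introns ran from 1197571 to 1754849 reads per library, and a single intron had a median of 378.75 reads. Across the libraries the median inclusion level was 5.75%, 5.95% and 5.72% in DMSO and 5.89%, 6.03% and 6.41% with palbociclib. The groups overlapped, and the difference of their means was 0.302 percentage points. The shorter introns had medians of 10.5%, 10.8% and 10.5% in DMSO and of 9.94%, 10.2% and 10.6% with palbociclib. The bulk of the long introns thus stayed at nearly the same level, and the changes below concern a small set.

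With palbociclib, 32 long introns in 29 genes had a higher inclusion level and 4 in 4 genes a lower one, at an adjusted p under 0.05 in edgeR's quasi-likelihood test over all 4565 retained introns. The 36 introns are 2.23% of the 1612, where 1.4% of all retained introns and 0.948% of the shorter ones were called. Higher calls made up 1.99% of the long introns against 1.1% of all, and lower calls 0.248% against 0.307%. Among the shorter introns these shares were 0.61% and 0.339%. The median log2 odds ratio, palbociclib over DMSO, was 0.05 over all long introns and -0.03 over the shorter ones, and it was above 0 in 56.6% and 46.2% of them. In 35 of the 36 the 3 libraries of one group did not overlap those of the other, as was so for 16.4% of all retained introns and 17.9% of the long ones. The authors' deposited table lists 90 of the long introns at an rMATS FDR under 0.05, 70 higher and 20 lower, and 26 of the 36 are among them. The balance of directions rested on the scaling: TMM over all 12 read columns gave 16 higher and 10 lower, which takes the higher share from 88.9% to 61.5%. Single libraries also moved the counts. Leaving out the first DMSO library gave 16 higher and 1 lower, and leaving out the third gave 14 and 1. With the first, the second or the third palbociclib library left out, the counts were 22 and 1, 16 and 2, and 24 and 7.

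**Figure D1:**
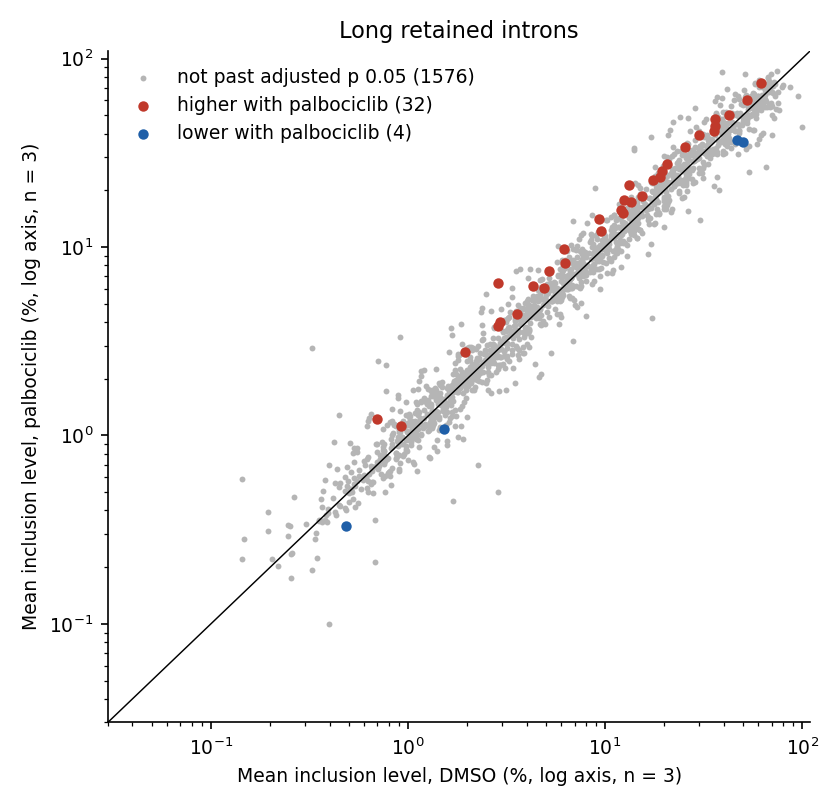
Mean inclusion level of each long retained intron with palbociclib (vertical) against DMSO (horizontal), in percent on log axes, n = 3 libraries per group. Red points are the 32 introns called higher and blue points the 4 called lower; most points follow the line of equal levels, and 2 introns with a mean of 0 in palbociclib are not drawn.

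The share of introns called was higher at greater depth. No intron of fewer than 100 reads per library was called among 271, 1 among 675 with 100 to 500 reads, 10 among 492 with 500 to 2000 reads, and 25 among 174 with 2000 or more (14.4%). At that highest depth 9 of 158 shorter introns (5.70%) were called, and in the band of 500 to 2000 reads the shares were alike, 2.03% and 2.16%. The median log2 odds ratio of the long introns also differed between the bands, and under 100 reads it was -0.01, with 49.8% of them above 0. In the deepest band 71.8% of them were above 0, with a median of 0.10, against 55.1% and 0.01 for the shorter ones. Length within the long introns showed no such order: 4 higher and 1 lower of 101 introns of at least 3000 bases were called, none of 153 between 2000 and 3000, and 10 higher and 1 lower of 491 between 500 and 750.

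**Figure D2:**
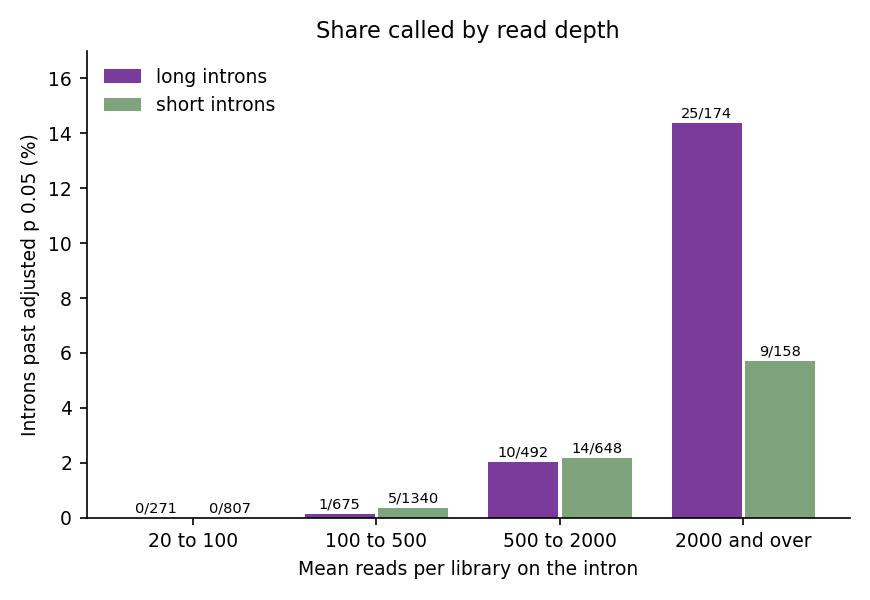
Share of introns called at an adjusted p under 0.05 in either direction (bars, percent, with called over tested above each) by mean reads per library, for long and shorter retained introns. The share rises with depth in both and reaches 14.4% and 5.70% at 2000 reads and over.

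The introns of splicing factor genes are given first. RBM39, an SR-related protein that is the target of aryl sulfonamide degraders, has the intron chr20:35739018-35740823. The inclusion level of this intron was 35.0%, 37.4% and 36.6% in DMSO and 49.8%, 45.9% and 46.9% with palbociclib. All 3 treated libraries lay above the controls. Its level rose from 36.3% ± 1.20 to 47.5% ± 2.06 (SD, n = 3), a log2 odds ratio of 0.67 ± 0.08 (SE) with an edgeR adjusted p of 3.01e-07.

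SRSF7, an SR protein that binds exonic enhancers and has a known poison exon, kept the intron chr2:38748654-38749528 at 12.3%, 12.9% and 11.96% in DMSO. With palbociclib the level was 17.8%, 18.35% and 17.3%, above every control library. The mean rose from 12.4% ± 0.500 to 17.8% ± 0.543, with a log2 odds ratio of 0.61 ± 0.09 and an adjusted p of 2.22e-05. The intron of SF3B1, the U2 snRNP subunit at the branch point, spans chr2:197418589-197420427 and was kept at 5.67%, 6.11% and 6.75% in DMSO. With palbociclib it stood at 10.0%, 9.71% and 9.53%, again above the range of the controls. Its mean rose from 6.18% ± 0.541 to 9.75% ± 0.236 (log2 odds ratio 0.72 ± 0.10, adjusted p 7.50e-06).

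PRPF39, a U1 snRNP-associated factor, had the largest rise in percentage points among the called introns. Its intron chr14:45096229-45096886 was at 60.4%, 64.7% and 59.6% in DMSO and at 77.5%, 73.6% and 71.3% with palbociclib. The groups did not overlap, the difference was 12.5 points, and the adjusted p was 0.0106. In SRRM2, a large SR-related scaffold of nuclear speckles, the intron chr16:2759662-2760300 stood at 43.2%, 42.0% and 42.9% in DMSO and at 54.9%, 50.05% and 45.7% with palbociclib (adjusted p 0.0257). The treated libraries were spread over a wide range, all above the controls. HNRNPH1, which binds G-rich RNA, rose from 52.6% ± 2.76 to 60.1% ± 0.635 (adjusted p 0.0316), and RBM25, which acts at 5′ splice sites, from 12.4% ± 0.223 to 15.1% ± 0.654 (adjusted p 0.0188).

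A further set lay in genes of RNA helicases, RNA export and ribosome assembly. DDX5 encodes a DEAD-box helicase, and its intron had 32075 reads per library, the most of all. It was kept at 35.8%, 37.6% and 35.1% in DMSO and at 43.9%, 43.7% and 44.5% with palbociclib. The treated libraries agreed within 1 point and lay above all controls. The rise from 36.2% ± 1.32 to 44.0% ± 0.372 gave a log2 odds ratio of 0.47 ± 0.06 and an adjusted p of 3.01e-07. This is the intron with the miR-3064 arms shown above, and no miRNA was measured.

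NXF1, the main mRNA export receptor, has a well known retained intron, which lies at chr11:62798576-62800376. It was at 30.0%, 31.1% and 29.2% in DMSO and 37.7%, 40.6% and 40.0% with palbociclib. Every treated library was above the controls, with a rise of 9.29 points and an adjusted p of 0.000398. EIF4A2, a translation initiation helicase whose intron holds the snoRNA gene SNORD2, rose from 35.7% ± 1.09 to 41.3% ± 2.52 (adjusted p 0.0190). DDX3X, another helicase, had 2 introns called, of 878 bases from 4.33% ± 0.462 to 6.19% ± 0.543 (adjusted p 0.00104) and of 1570 bases from 2.87% ± 0.0599 to 3.81% ± 0.204 (adjusted p 0.0355). NOP56, a core protein of box C/D snoRNPs, rose from 13.6% ± 0.583 to 17.3% ± 0.898 (adjusted p 0.00684). NOC3L, a ribosome assembly factor, had the largest log2 odds ratio among the called introns, 1.26 ± 0.29, at only 244 reads per library (2.85% ± 0.926 to 6.44% ± 1.009, adjusted p 0.0124).

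The remaining rises were in genes of varied function. The intron chr1:223769910-223770446 of CAPN2, a calcium-dependent protease, was at 13.6%, 14.2% and 11.9% in DMSO and at 20.7%, 21.3% and 21.8% with palbociclib. The gap between the groups was several times the spread within either. Its adjusted p was 5.80e-06. ANAPC5, a subunit of the anaphase-promoting complex, had 2 introns called, from 25.4% ± 1.86 to 33.8% ± 2.50 (adjusted p 0.000292) and from 19.4% ± 2.23 to 25.2% ± 3.93 (adjusted p 0.0190). YBX2, a cold-shock domain protein that binds mRNA, rose from 20.7% ± 1.67 to 27.5% ± 0.208, and FBXO9, an F-box protein, from 17.5% ± 1.74 to 22.6% ± 1.87.

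CD46, a complement regulator, had 2 called introns that start at the same 5′ splice site, so that they share reads. The one of 3125 bases rose from 12.02% ± 1.97 to 15.6% ± 2.32 and was the single called intron whose groups overlapped, and the one of 583 bases rose from 15.4% ± 0.798 to 18.7% ± 1.31. Rises were also found in PSMA1, NMT1, AP2M1, HMGN1, TPM1, DNAJB11, SMARCD2, HSPH1 and TMSB4X, with differences between 0.202 points (TMSB4X) and 2.64 points (PSMA1).

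The 4 falls were of unlike size. BCAM, a laminin-binding cell surface protein, kept the intron chr19:44819727-44820704 at 47.1%, 46.0% and 47.1% in DMSO. With palbociclib it was at 35.9%, 36.2% and 38.2%, below all controls, with a log2 odds ratio of -0.59 ± 0.09 and an adjusted p of 5.55e-05. ACAD10, an acyl-CoA dehydrogenase family member, fell from 49.8% ± 1.81 to 35.9% ± 1.73 (chr12:111755746-111756332, adjusted p 0.0240). Both lie near the end of their gene. G3BP1, a stress granule protein, fell from 0.486% ± 0.0812 to 0.329% ± 0.0138 (adjusted p 0.0419), both very low levels.

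NPEPPS, a cytosolic aminopeptidase, had a called intron in each direction. The intron chr17:47619165-47619736 was at 9.09%, 9.48% and 9.54% in DMSO and at 13.3%, 14.6% and 14.3% with palbociclib (adjusted p 5.65e-07). The intron chr17:47579512-47582741 of the same gene was at 1.54%, 1.49% and 1.52% in DMSO and at 1.05%, 1.11% and 1.08% with palbociclib (adjusted p 0.0187). In neither did the groups overlap. NPEPPS, HMGN1 and TMSB4X have near-identical gene or pseudogene copies, so their read assignment is uncertain.

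**Figure D3:**
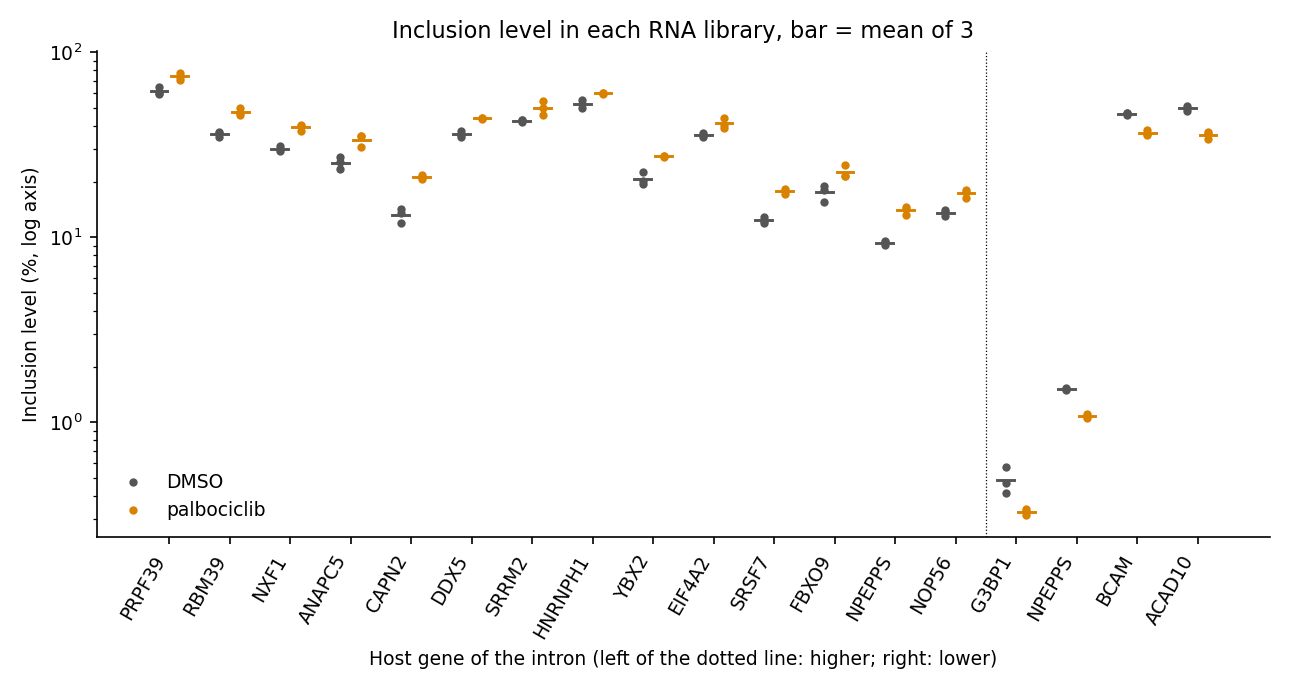
Inclusion level (percent, log axis) of 14 of the 15 introns chosen for the largest rises, left of the dotted line, and of the 4 that fell, right of it, in each of 3 DMSO and 3 palbociclib RNA libraries. Points are libraries and bars their mean; in all 18 the 2 groups are separate.

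Of the 36 introns, 11 stayed past the threshold when each library in turn was left out. These were the introns of RBM39, NXF1, CAPN2, DDX5, SRSF7, SF3B1, HMGN1 and BCAM, the rising intron of NPEPPS, the 864-base intron of ANAPC5 and the 878-base intron of DDX3X. The other calls were lost without at least 1 library. Among them, those of ACAD10, PSMA1 and the 1570-base intron of DDX3X were lost whichever library was left out. Those of SRRM2, HNRNPH1, HSPH1, G3BP1, the 583-base intron of CD46 and the falling intron of NPEPPS held in only 1 of these fits.

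The direction was then compared between kinds of read, by an alternative chosen after seeing the data. Against spliced reads, the 5′ junction reads alone gave the same direction in all 36 introns, the body reads in all 36 and the 3′ junction reads in 35, the exception being G3BP1. The introns were called on the sum of these kinds against the same spliced reads, so a shared direction was largely fixed by that choice. With the reads of both junctions, 10 of the 36 were past the threshold on their own, and with the body reads 6. The 5′ junction reads alone passed for 3, and the 3′ junction reads alone for 3. Junction reads of both ends passed for DDX5 (adjusted p 1.57e-05), RBM39, NPEPPS, BCAM, SF3B1, CAPN2, ANAPC5, YBX2, PRPF39 and the 3125-base intron of CD46. For SRSF7 the body reads had a log2 odds ratio of 0.70 and the 5′ and 3′ junction reads 0.43 and 0.37, whereas for DDX5 the 3 kinds were alike, at 0.48, 0.48 and 0.45.

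**Figure D4:**
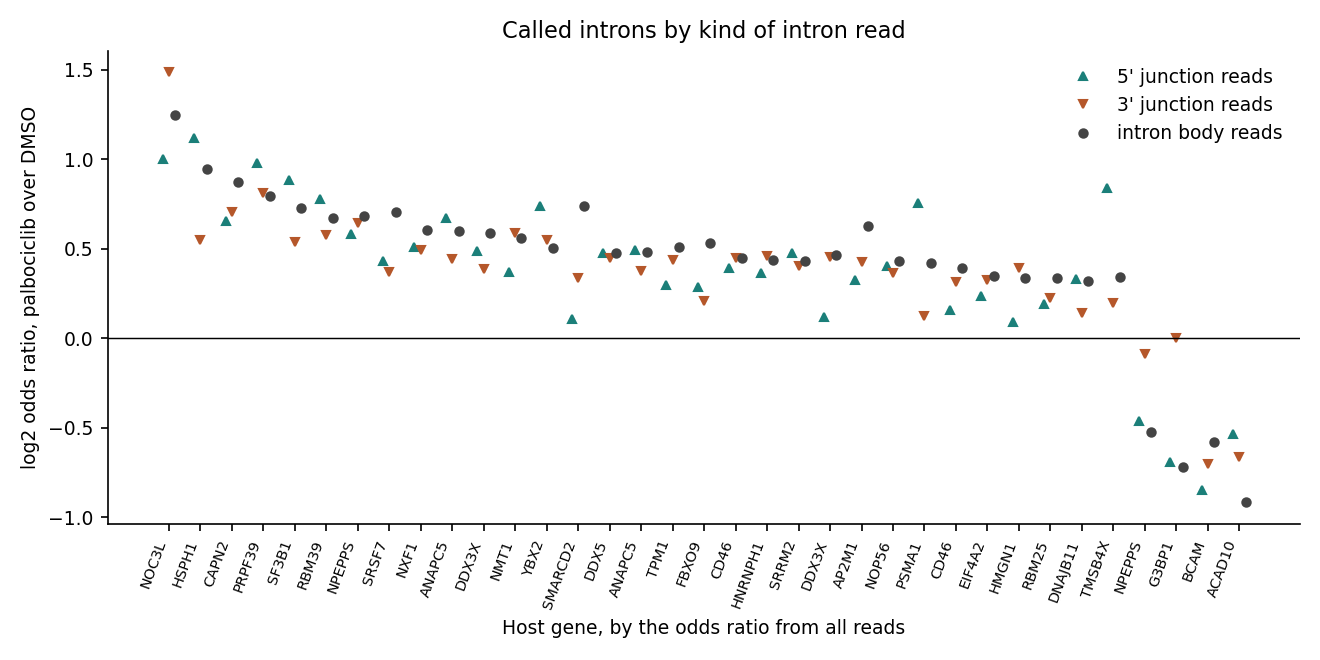
Log2 odds ratio of inclusion, palbociclib over DMSO, for 35 of the 36 called introns from 5′ junction reads, 3′ junction reads and intron body reads taken separately. Markers of the 31 introns called higher that are drawn lie above 0 for all 3 kinds, and those of the 4 called lower lie below 0 apart from the 3′ junction reads of G3BP1. The introns were called on the 3 kinds together, against the same spliced reads.

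Cassette exons were common inside the called introns. A cassette exon lay inside 23 of the 36, against 312 of all 1612. Of the introns with such an exon 7.37% were called, and of the 1300 without one 1%; with at least 1000 reads per library the shares were 21.3% of 108 and 3.95% of 253. Reads per library had medians of 490 and 353.6 in the 2 sets. The 13 called introns without a cassette exon were those of NXF1, CAPN2, HNRNPH1, FBXO9, NOC3L, PSMA1, SMARCD2, HSPH1 and TMSB4X, the 1084-base intron of ANAPC5, BCAM, ACAD10 and the falling intron of NPEPPS.

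For 18 called introns, all higher, the cassette exon between the same 2 splice sites could be tested in the table of skipped exons. Exon inclusion had the same sign as the intron in all 18 and rose in 6, where 0.312% of 13469 skipped exons were called in either direction and 0.163% rose. The exon and its intron share the reads that skip both, and exon reads are also intron body reads, so these are not independent measurements. How far exon inclusion accounts for the intron values was not tested.

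The 449-base exon in the SRSF7 intron rose from 8.75% ± 0.620 to 13.0% ± 0.325 (log2 odds ratio 0.64 ± 0.13, adjusted p 0.0295). The 745-base exon of SF3B1 rose from 4.33% ± 0.767 to 7.20% ± 0.268 (adjusted p 0.0177), and the 218-base exon of NPEPPS from 5.16% ± 0.628 to 8.94% ± 0.402 (adjusted p 0.000676). In these genes exon and intron moved by similar odds. TPM1, an actin filament protein, differed, with a log2 odds ratio of 1.05 ± 0.17 for its 76-base exon and of 0.47 ± 0.11 for the intron. The exons in the 583-base intron of CD46 and in the intron of EIF4A2 rose as well, the latter from 85.0% ± 1.48 to 88.3% ± 1.00. The 73-base exon of RBM39 was at 38.3% ± 3.44 and 48.1% ± 1.60 without passing the test (adjusted p 0.0979).

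**Figure D5:**
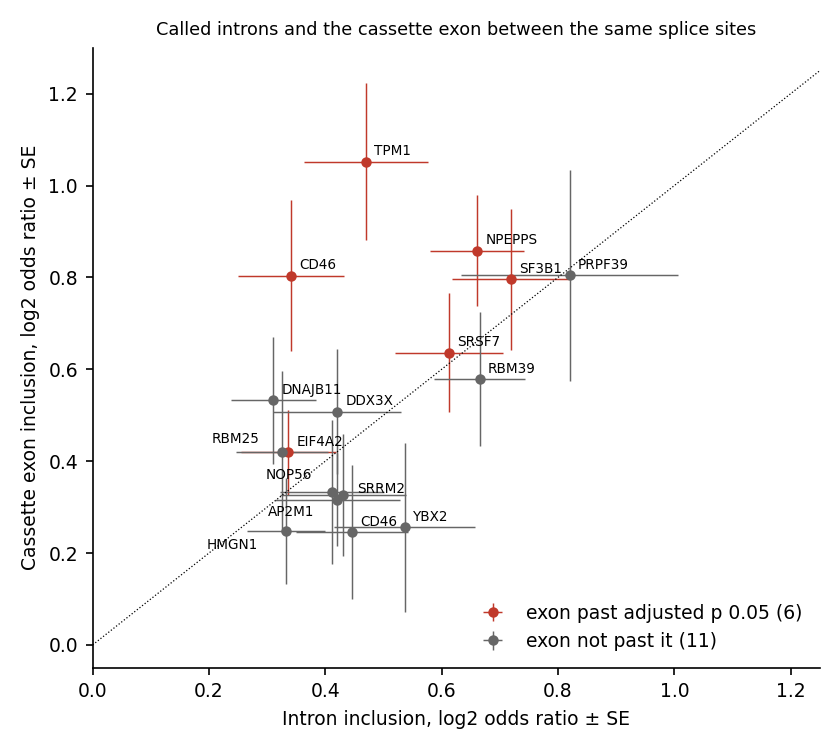
Log2 odds ratio (palbociclib over DMSO, ± SE) of the cassette exon (vertical) against that of the intron around it (horizontal) for 17 of the 18 called introns with a testable exon on the same splice sites; the dotted line marks equal values. All 17 exons lie above 0, and the 6 past an adjusted p of 0.05 are red.

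The lists of splicing genes were read for the introns they hold, beside 1.4% called and a median log2 odds ratio of 0.00 over all retained introns. Of all long introns 2.23% were called. Of the long introns with 2000 or more reads per library 14.4% were called and 71.8% had a log2 odds ratio above 0. The lists were not compared at matched depth. The lists and members were chosen with earlier results known. Of 21 genes of SR, TRA2 and related proteins, 8 held 10 long retained introns, of which 3 rose (RBM39, SRRM2, SRSF7) and none fell, with a median log2 odds ratio of 0.35 and 10 of 10 above 0. SRSF5 and SRSF2, the 2 with the most reads, were among them at 48.2% and 51.5% (adjusted p 0.244) and at 22.0% and 24.2% (adjusted p 0.209) in DMSO and palbociclib. Among genes of the U1 and U2 snRNPs and branch point recognition, 1 of 6 introns rose (SF3B1), with SNRPA1 at 56.1% and 60.1% (adjusted p 0.816) and LUC7L at 8.02% and 7.07% (adjusted p 0.820).

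The splicing kinases, which phosphorylate SR proteins, had 3 introns and no call. CLK1, CLK3 and CLK4 were at 7.87%, 15.1% and 28.2% in DMSO and at 7.47%, 15.1% and 32.1% with palbociclib. The minor spliceosome had 2 introns (SNRNP25, PPIL2) and nonsense-mediated decay 1 (MAGOHB), none called. At an unadjusted p under 0.05 edgeR had 0 of the 3, 1 of the 2 and 0 of the 1, beside 15.1% of all long introns, and DESeq2 called 0 in each list. Genes of nuclear RNA decay and export held 14 introns in 8 genes, of which 1 rose, that of NXF1, with PABPN1 at 14.2% and 15.8% (adjusted p 0.446) and EXOSC2 at 22.1% and 25.1% (adjusted p 0.507). Of 33 genes listed for known detained introns, 16 held 24 long introns, and 6 rose (DDX5, RBM39, EIF4A2, NXF1, SRSF7, HNRNPH1), with a median log2 odds ratio of 0.22 and 66.7% above 0. The 6 that rose had between 2996 (HNRNPH1) and 32075 (DDX5) reads per library, all in the deepest band.

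The remaining lists were of other functions. Of 44 introns in 23 chromatin regulator genes 1 rose, that of SMARCD2, a SWI/SNF subunit, from 1.96% ± 0.264 to 2.77% ± 0.0566 (adjusted p 0.0147), with a median log2 odds ratio of 0.01. Of 10 introns in 9 cell cycle and replication genes none was called in edgeR, with CDK2 at 14.5% and 17.4% (adjusted p 0.446), FANCI at 31.7% and 38.4% (adjusted p 0.805) and MCM4 at 0.659% and 0.569% (adjusted p 0.802). The palbociclib libraries of FANCI stood at 54.2%, 29.1% and 31.9%, so its higher mean rested on the first of them. At an unadjusted p under 0.05 there were 2 of the 10, beside the 15.1% of all long introns, and DESeq2 called 0. The RNA level of 98 of 99 tested genes of that list fell. ERBB3, the single luminal gene with long retained introns, had 2, at 9.86% and 10.7% and at 2.24% and 2.05%, with 0 called in edgeR, 0 in DESeq2 and 0 at an unadjusted p under 0.05.

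The RNA level of the host genes was compared by limma on log2(FPKM + 1), in which 20.9% of 15869 genes rose and 22.9% fell. Of 1136 host genes 262 (23.1%) rose and 293 (25.8%) fell, with a median log2 change of 0.00. Quantile normalization gave 383 and 231, which takes the higher share from 47.2% to 62.4%. In these bulk samples fewer cells of a type and less RNA per cell cannot be told apart. With the introns cut into 4 equal parts by the host RNA change, from the largest falls to the largest rises, the median log2 odds ratio of intron inclusion was 0.10, 0.08, 0.03 and 0.02, with 7, 8, 6 and 11 introns called higher. The Pearson r between them was -0.087 over 1341 introns with at least 100 reads, given as a description, since both values come from the same libraries.

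Among the 29 genes with a higher inclusion level, the RNA level rose in 12, fell in 8 and passed the test in neither direction in 9. SRSF7 stood at 102.2 ± 1.68 FPKM in DMSO and fell to 65.1 ± 1.147 (log2 -0.64, limma adjusted p 7.84e-07). YBX2 fell from 47.5 to 30.0 FPKM (log2 -0.65, adjusted p 2.96e-05), NOP56 from 131.8 to 91.7 (log2 -0.52, adjusted p 5.73e-06) and HSPH1, a heat shock chaperone, from 45.4 to 34.1 (log2 -0.40, adjusted p 0.00135). Others rose together with their intron. NPEPPS rose from 260.8 to 337.1 FPKM (log2 0.37, adjusted p 8.03e-05), CAPN2 from 47.9 to 60.5 (log2 0.33, adjusted p 0.000127) and SF3B1 from 71.5 to 77.7 (log2 0.12, adjusted p 0.0418). DDX5 was at 376.3 and 428.5 FPKM (adjusted p 0.0592), RBM39 at 221.2 and 245.6 (adjusted p 0.0534) and NXF1 at 42.4 and 37.9 (adjusted p 0.102). Of the genes with a lower inclusion level, BCAM rose from 102.3 to 135.2 FPKM (log2 0.40, adjusted p 3.69e-05) and G3BP1 fell from 303.6 to 244.1 (log2 -0.31, adjusted p 9.56e-05).

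The genes that carry out splicing, decay and export were also compared. Of 122 tested in the 6 pathway lists, 16 rose and 60 fell, beside 20.9% and 22.9% of all genes, with a median log2 change of -0.13 against 0.00 over all genes. Quantile normalization gave 26 and 51, and without DMSO replicate 2 or palbociclib replicate 2 there were 10 and 9 that rose. In the list of the U1 and U2 snRNPs and branch point recognition 16 of 23 fell and 3 rose, in that of nuclear decay and export 18 of 31 and 2, in nonsense-mediated decay 9 of 18 and 3, among SR and TRA2 proteins 9 of 21 and 4, among the splicing kinases and the PRMT5 axis 5 of 15 and 3, and in the minor spliceosome 3 of 14 and 1, the falls there being near the share over all genes. SRSF2 fell from 240.3 ± 9.50 to 165.8 ± 5.53 FPKM (log2 -0.53, adjusted p 1.30e-05) and MAGOHB, an exon junction complex subunit, from 14.9 ± 0.704 to 9.84 ± 1.07 (log2 -0.56, adjusted p 0.000429). CLK4 was higher with palbociclib, from 15.2 ± 0.656 FPKM in DMSO (log2 0.15, adjusted p 0.0416), and CLK1 was at 23.7 ± 0.874 and 26.2 ± 1.91 (adjusted p 0.0806).

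Open chromatin inside the introns was read from 38121 ATAC peaks. Of these 35 had their midpoint in 34 long retained introns, and 4 changed (11.4%), as 11.9% of all peaks did. The peak in an intron of CASP2, an apoptosis protease, stood at 6.45, 6.97 and 6.13 CPM in DMSO and at 12.6, 12.7 and 10.3 CPM with palbociclib. The treated libraries were all higher, with a log2 change of 0.86 and an edgeR adjusted p of 1.14e-05. Peaks in introns of PMS2, a mismatch repair protein with a near-identical pseudogene, and MOV10, an RNA helicase, rose by 0.52 and 0.24 (adjusted p 0.00542 and 0.0277). The peak in an intron of EEIG1 fell by 0.28 on the log2 scale (adjusted p 0.00804). In these 4 genes intron inclusion had log2 odds ratios of 0.07, 0.01, -0.11 and -0.05 for CASP2, PMS2, MOV10 and EEIG1, none called. Of the 36 called introns only that of SMARCD2 held a peak midpoint, at 36.4 ± 1.73 CPM in DMSO and 33.9 ± 2.56 with palbociclib (log2 -0.11, adjusted p 0.413). Without palbociclib replicate 2 a single peak rose, none fell without DMSO replicate 3 or palbociclib replicate 1, and 2 fell without palbociclib replicate 3.

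At the promoters of the genes with called introns the median log2 change in accessibility was -0.067, against 0.004 over all peaks. Of 29 such genes with a RefSeq promoter, 13 had a peak within 1 kb of the start, of which 0 rose and 2 fell in edgeR, beside 5.41% and 6.46% of all peaks. At an unadjusted p under 0.05 also 0 rose, and 0 in DESeq2, and falls are not given for these 2 settings. The peak of TMSB4X, which encodes an actin-sequestering peptide, fell from 86.3 ± 3.49 to 76.2 ± 2.74 CPM (log2 -0.18, adjusted p 0.0264). That of NMT1, an N-myristoyltransferase, fell from 234.9 ± 5.32 to 215.3 ± 9.16 CPM (log2 -0.13, adjusted p 0.0491).

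Promoters from 250 bases before to 50 after the start were searched on both strands for 3 variants of the E2F motif, TTTCGCGC, TTTGGCGC and TTTCCCGC, because palbociclib acts on the RB and E2F pathway. The variants differ only in their middle letters and cannot overlap each other on 1 strand. A match was found in 5 of the 29 promoters (17.2%), those of CD46, FBXO9, PSMA1, SF3B1 and YBX2, in 49 of 929 promoters of genes with a long retained intron (5.27%) and in 961 of all 35116 (2.74%). The 3 that also carry a tested ATAC peak are shown, from RefSeq on GRCh38.p14 and 5′ to 3′ along the gene, with the motif or its reverse complement in capitals.
SF3B1, chr2:197434979-197435278, minus strand: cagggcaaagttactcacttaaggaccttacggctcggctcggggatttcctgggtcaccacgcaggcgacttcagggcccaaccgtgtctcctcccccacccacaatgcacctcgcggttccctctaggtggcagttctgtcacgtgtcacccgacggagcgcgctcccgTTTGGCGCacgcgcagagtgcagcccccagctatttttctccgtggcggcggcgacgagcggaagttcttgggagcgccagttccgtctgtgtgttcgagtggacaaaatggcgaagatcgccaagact
FBXO9, chr6:53064748-53065047, plus strand: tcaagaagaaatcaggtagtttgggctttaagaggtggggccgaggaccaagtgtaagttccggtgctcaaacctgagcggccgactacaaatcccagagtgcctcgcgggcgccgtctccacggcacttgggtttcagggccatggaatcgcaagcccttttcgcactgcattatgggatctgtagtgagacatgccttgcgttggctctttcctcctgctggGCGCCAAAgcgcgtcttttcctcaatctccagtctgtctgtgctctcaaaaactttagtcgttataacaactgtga
PSMA1, chr11:14520337-14520636, minus strand: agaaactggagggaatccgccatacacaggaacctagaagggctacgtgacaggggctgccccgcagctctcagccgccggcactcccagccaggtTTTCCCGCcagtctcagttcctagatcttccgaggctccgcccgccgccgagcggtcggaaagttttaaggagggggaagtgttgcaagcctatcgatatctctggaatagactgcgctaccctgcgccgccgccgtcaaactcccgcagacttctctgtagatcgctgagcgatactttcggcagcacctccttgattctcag
The peaks there stood at 61.3 ± 3.61 and 56.4 ± 1.98 CPM in DMSO and palbociclib for SF3B1 (adjusted p 0.235), at 81.6 ± 3.30 and 80.0 ± 3.53 for FBXO9 (adjusted p 0.816) and at 47.5 ± 0.782 and 43.2 ± 1.17 for PSMA1 (adjusted p 0.189). The RNA level of SF3B1, FBXO9, CD46 and PSMA1 rose and that of YBX2 fell, so the genes with a match did not share a direction.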

How the data were processed

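Inclusion and skipping read counts, inclusion levels, an FDR (an adjusted p value) and a level difference that serves as a score are in the rMATS tables deposited by the authors. The FPKM table with their log2 fold changes was also deposited by the authors. ATAC read counts per peak are deposited too, from featureCounts with deduplicated alignments, per the file headers. The submitters' processing notes list STAR 2.7.10b, Salmon 1.10.2, DESeq2 1.44.0 and GRCh38 for RNA and Bowtie2 2.5.4-6 and MACS3 3.0.3-0 for ATAC, and the rMATS version and counting strand are not given in the sources used here. The 3 values in a cell were read as replicates 1 to 3 in the order that the labels state. The 6 values in a cell of the columns by kind of read were taken as palbociclib 1 to 3, then DMSO 1 to 3, an order under which their spliced reads equal the skipping counts in every library.

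Inclusion was tested with edgeR 4.0.16 in R 4.3.3 (glmQLFit, glmQLFTest), with a term per library, 1 for the form and 1 for form by treatment. Library size was shared by both forms and p values were adjusted by Benjamini-Hochberg over the 4565 retained introns. Its log2 odds ratio compares reads of the 2 forms, and its SE was derived from the test statistic. RNA levels were tested with limma 3.58.1 with trend (pseudocount 1, mean FPKM of at least 0.5), and peaks with edgeR after TMM. CPM are library-scaled counts. ATAC counts summed to 12830062 to 18250496 per library. The skipped exon test used the same model and read filters and was added after seeing the data. The tests were checked on simulated data.

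Introns were named by rule: called introns, 1 per gene (the one with most reads), up to 15 each way by difference in level; the 3 highest, lowest and longest with at least 50 reads; 2 on each side of the length limit; up to 3 per gene list plus those called; and changed peaks. A second called intron of a gene, the called introns beyond 15, the exons and the promoters shown were named after their values were seen. Of the called introns, 1 is not reported by name. The members and lists were chosen with earlier results of these data known. Groups came from the labels, in which nothing ties equal replicate numbers across treatments. The deviations of same-numbered libraries had correlations of at most 0.106, which does not exclude a weak pairing. Alternatives covered scaling, filters, DESeq2 1.42.0, read kinds, the replicate block and each library left out.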

Additional observations from a re-analysis of the deposited data

How the results depend on the processing

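Over the alternatives tried, higher calls outnumbered lower ones among the long introns. The counts within 1.5 times of the reported 32 and 4 included 31 and 3 with centred odds, 30 and 3 with DESeq2, 32 and 5 at a mean of at least 50 reads and 31 and 3 with all 5 event types in 1 fit. TMM over the 12 columns gave 16 and 10, junction reads of both ends 12 and 2, 5′ junction reads 3 and 0, 3′ junction reads 3 and 0, body reads 6 and 0, and introns of at least 1000 bases 13 and 2. Each kind of read is a part of the inclusion reads, the body 72.6% of them at the median. Why fewer introns were called by single kinds was not tested. Without 1 library the higher calls ranged from 14 to 25 and the lower from 1 to 7. Of the 36 introns 14 kept the call with no read filter, 20 with TMM and 33 with DESeq2. Of 641 values of single introns under the alternatives 372 kept direction and call, 268 kept direction and lost the call, and 1 reversed, G3BP1 with 3′ junction reads only, at a log2 odds ratio of 0.00077 (adjusted p 1.00); the cause was not tested.

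The replicate block, which adds the replicate number to the model, gave 45 higher and 7 lower long introns, with all 36 kept. Same-numbered libraries had correlations of their deviations of -0.017, 0.0037 and 0.034 for inclusion and of 0.106, -0.0051 and 0.088 for RNA. Libraries correlated best with their own number for 1 of 3 numbers in inclusion and 2 of 3 in RNA, and since in neither were all 3 correlations over 0.1, the numbers were not taken to pair the libraries. Under the block 266 host genes rose and 293 fell, and 20 pathway genes rose and 59 fell.

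For pathway genes, quantile normalization gave 26 higher, and leaving out 1 library gave 9 to 15 higher and 55 to 57 lower. For peaks inside the introns, 1 rose when the whole peak had to lie inside (19 peaks), and leaving out 1 library gave 1 to 3 higher and 0 to 2 lower. Of the 36 called introns, 33 had at least 1000 reads per library, and how far depth sets which introns were called was not tested. The samples are 3 per group, and the p values measure the spread between cultures of 1 line.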

Other observations

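Small RNA genes lay whole inside 27 of the long retained introns, with 24 snoRNA genes in 23 introns and 4 miRNA genes in 3. The introns of DDX5, EIF4A2 and HMGN1 were called, 3 of the 27 beside 2.23% of all long introns. None of the other 24 was called in edgeR or DESeq2, and 6 of them had an unadjusted p under 0.05, beside 15.1% of all long introns. Several hosts are non-coding genes with snoRNAs in their introns. In SNHG14, which carries the SNORD116 family, 8 long introns were kept at mean DMSO levels between 0.823% and 34.1%, the most introns of any gene. The SNHG14 intron with SNORD116-20 and SNORD116-21 stood at 26.3% and 35.3% in DMSO and palbociclib (adjusted p 0.287), and the SNHG17 intron of 993 bases at 47.6% and 60.7% (adjusted p 0.206). In GAS5, a growth arrest RNA, the intron with SNORD80 was at 14.8% and 13.4% (adjusted p 0.449). RACK1, a ribosomal scaffold protein, kept the intron with SNORD96A at 1.66% and 1.45% at 12140 reads per library (adjusted p 0.221).

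Other genes with many long retained introns held no call. TSC2, the GTPase-activating subunit of the tuberous sclerosis complex, had 7, at mean DMSO levels from 4.82% to 70.4%. EXOSC2, a subunit of the RNA exosome, had 6, from 3.01% to 41.9%. Introns of 1 gene thus differed widely in inclusion level.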
